A study of Homo sapiens with 4 samples.

Results

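The long intergenic non-coding RNAs with a LINC symbol were described across 4 RNA-seq libraries of human ovarian cancer cultures. Members were chosen by name and by measured level. A member was any symbol made of LINC and digits, without a hyphen, with at least 1 CPM (counts over the library's total counts, per 1e6, before any scaling) in at least 1 of the 4 libraries, which left 138 of the 1219 LINC symbols among 52402 symbols in all. The cultures are labelled OVCAR3 and SKOV3, each as cells with a CRISPR-Cas9 knockout (KO) of the envelope gene of the endogenous retrovirus HERV-K119 and as mock control cells. Hygromycin was given to all 4 cultures after transfection, the KO and the mock alike, and each of the 4 groups (OVCAR3 KO, OVCAR3 mock, SKOV3 KO, SKOV3 mock) holds 1 library. Both are established lines of human ovarian adenocarcinoma, and the labels give no clone, passage or separate culture. The targeted envelope gene was not analysed here, so the knockout was not checked in the RNA. The questions of the design are which LINC RNAs differ between KO and mock cells of each line, and which differ between the labelled lines.

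LINC symbols are place-holder names for long non-coding RNA genes that stand apart from protein-coding genes, and many were given before any function was known. Some long non-coding RNAs stay in the nucleus at their own gene and act on a neighbour in cis, some act in the cytoplasm on mRNAs or microRNAs, and a few were later found to be translated into a small protein. Several LINC RNAs have been studied in carcinomas, where their levels are often specific to a tissue or a cell line.

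Sequences are shown for 5 members whose values are described below, as the RefSeq promoter window (GRCh38.p14) of 300 bases, 250 before and 50 after the annotated start, 5′ to 3′ on the gene's strand. LINC00641 (chr14:21206851-21207150, minus strand) and LINC01873 (chr2:66383056-66383355, plus strand) are members that were higher in OVCAR3 KO than in OVCAR3 mock. LINC00941 (chr12:30795431-30795730, plus strand) and LINC01137 (chr1:37474394-37474693, minus strand) are members that were lower there. LINC00998 (chr7:113118505-113118804, minus strand) had the highest mean level of all members. Capitals mark matches, on either strand, to the CCAAT box (CCAAT), the GC box (GGGCGG), the TATA box (TATAAA), the AP-1 site (TGANTCA), the CRE site (TGACGTCA) or the composite ATF4 and C/EBP site (TGATGNAA), and neighbouring matches can overlap. A match is a run of letters and not a shown binding site.
LINC00641: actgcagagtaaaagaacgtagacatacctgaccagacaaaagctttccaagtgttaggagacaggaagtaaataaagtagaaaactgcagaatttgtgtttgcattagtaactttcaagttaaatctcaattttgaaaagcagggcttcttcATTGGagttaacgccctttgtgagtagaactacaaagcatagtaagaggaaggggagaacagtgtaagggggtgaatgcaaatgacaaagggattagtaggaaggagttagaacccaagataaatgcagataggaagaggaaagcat
LINC01873: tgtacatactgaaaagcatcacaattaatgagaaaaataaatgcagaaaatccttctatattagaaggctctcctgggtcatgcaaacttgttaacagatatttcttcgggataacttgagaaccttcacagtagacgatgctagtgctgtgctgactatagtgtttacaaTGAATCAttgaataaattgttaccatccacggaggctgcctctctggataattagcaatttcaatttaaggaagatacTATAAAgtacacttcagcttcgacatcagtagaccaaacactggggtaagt
LINC00941: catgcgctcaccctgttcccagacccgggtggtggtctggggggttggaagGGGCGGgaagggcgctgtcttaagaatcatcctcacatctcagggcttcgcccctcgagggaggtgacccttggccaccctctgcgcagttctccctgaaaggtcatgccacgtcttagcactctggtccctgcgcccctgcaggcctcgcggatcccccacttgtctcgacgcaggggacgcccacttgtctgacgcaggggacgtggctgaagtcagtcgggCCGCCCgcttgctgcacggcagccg
LINC01137: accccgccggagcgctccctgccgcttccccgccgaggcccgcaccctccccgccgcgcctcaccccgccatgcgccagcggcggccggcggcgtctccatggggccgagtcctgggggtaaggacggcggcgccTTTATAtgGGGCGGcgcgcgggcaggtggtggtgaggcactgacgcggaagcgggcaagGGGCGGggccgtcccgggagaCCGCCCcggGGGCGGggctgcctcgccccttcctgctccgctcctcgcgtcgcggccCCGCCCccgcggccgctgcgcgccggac
LINC00998: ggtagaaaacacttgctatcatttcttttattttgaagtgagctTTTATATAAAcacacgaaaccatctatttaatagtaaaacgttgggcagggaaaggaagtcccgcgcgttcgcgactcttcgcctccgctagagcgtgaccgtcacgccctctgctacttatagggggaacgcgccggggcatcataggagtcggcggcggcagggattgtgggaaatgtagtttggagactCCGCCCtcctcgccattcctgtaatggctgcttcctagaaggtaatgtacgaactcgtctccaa

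One microRNA of the RefSeq table lies within a member, hsa-miR-378g inside LINC01057 (chr1:94745880-94745899, minus strand, the strand of the LINC01057 transcripts in GENCODE 29). Its mature sequence is shown with the seed, bases 2 to 8, in capitals, because LINC01057 was the most abundant member that was lower in OVCAR3 KO than in OVCAR3 mock. The libraries did not measure mature microRNAs.
hsa-miR-378g: aCUGGGCUuggagucagaag

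The libraries held 15825915 counts in OVCAR3 KO, 16298490 in OVCAR3 mock, 15145483 in SKOV3 KO and 22057693 in SKOV3 mock, so that a count of 0 allows up to 0.190, 0.184, 0.198 and 0.136 CPM in that order. Levels below are mostly scaled CPM, in which each library's total is adjusted by its TMM factor (trimmed mean of M values), so that the bulk of genes is level between libraries. The OVCAR3 KO library stood apart from the other 3. Mitochondrial genes took 21.9% of its counts, against 5.93% in OVCAR3 mock, 5.93% in SKOV3 KO and 5.16% in SKOV3 mock. The 5 epithelial markers (EPCAM, CDH1, KRT8, KRT18 and KRT19) summed to 1966 scaled CPM in OVCAR3 KO, 7303 in OVCAR3 mock, 5031 in SKOV3 KO and 5404 in SKOV3 mock. EPCAM alone was at 268, 315, 308 and 352 scaled CPM, and the 5 mesenchymal markers (VIM, COL1A1, COL1A2, DCN and LUM) summed to 36.1, 20.9, 21.1 and 19.4, with LUM at 0 counts in all 4. Nearly all of that sum was COL1A1 (35.0, 19.8, 18.8 and 17.4), while VIM was at 0.95, 1.10, 2.35 and 1.95. Of 4 immune markers, PTPRC and CD3E had 0 counts in all 4, CD68 was at 8.21, 15.2, 34.6 and 35.4 scaled CPM, and CD79A was at 0.339, 0.243, 0.317 and 0.443. Their part in the results was not tested. Markers of the lines were mixed. MUC16, the CA125 antigen, had 91 and 45 counts in OVCAR3 KO and OVCAR3 mock and 1 count in each SKOV3 library, which went with the labels. CDKN2A, which is deleted in SKOV3, had 91.2 scaled CPM in the library labelled SKOV3 KO and 90.6 in the one labelled SKOV3 mock. WT1 had 0 counts in all 4 libraries, and ERBB2, amplified in SKOV3, was at 32.0, 73.3, 55.7 and 58.5 scaled CPM. The names of lines below are therefore names on labels. In cultures sequenced in bulk, fewer cells of a type and less RNA per cell cannot be told apart.

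The members were mostly weakly expressed, and a few carried much of the signal. Their median was 3.09 scaled CPM in OVCAR3 KO, 2.01 in OVCAR3 mock, 2.06 in SKOV3 KO and 1.95 in SKOV3 mock. The protein-coding genes with the same minimum had medians of 24.0, 28.4, 27.7 and 27.4. The 10 highest members of each library held 48.4%, 51.8%, 52.0% and 51.1% of its LINC counts. The members summed to 1195 unscaled CPM in OVCAR3 KO (95% counting interval 1178 to 1212), against 820 in OVCAR3 mock (806 to 834), and to 886 in SKOV3 KO (871 to 901), against 862 in SKOV3 mock (850 to 875). The sum was highest in OVCAR3 KO, and it was also highest there when mitochondrial rows were left out of the totals, at 1530, 872, 941 and 909 CPM.

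Per kilobase of exon, which was known for 128 members and not for the abundant LINC01000 and LINC00673, 3 members stood well above the rest, and 2 of these have since been renamed as genes of small proteins. LINC00998, now SMIM30, which encodes a small membrane protein, had 61.4 scaled CPM per kilobase in OVCAR3 KO, 34.7 in OVCAR3 mock, 51.2 in SKOV3 KO and 51.2 in SKOV3 mock. LINC00493, now SMIM26, which encodes a small mitochondrial protein, had 42.6, 26.5, 35.2 and 36.7 in the same order. Both were highest in OVCAR3 KO and lowest in OVCAR3 mock. LINC00674 had 72.1 and 49.4 scaled CPM per kilobase in OVCAR3 KO and OVCAR3 mock, and 33.6 and 37.8 in SKOV3 KO and SKOV3 mock, so both OVCAR3 libraries were above both SKOV3 libraries. Their means over the 4 libraries were 49.6 for LINC00998, 48.2 for LINC00674 and 35.2 for LINC00493 scaled CPM per kilobase. LINC01296, now named DUXAP9 as a transcribed pseudogene, averaged 9.49, LINC01234, an RNA studied in carcinomas, 8.57, and LINC01057 7.93 scaled CPM per kilobase. LINC00116, now MTLN, which encodes the mitochondrial micropeptide mitoregulin, averaged 7.84, LINC00641 7.73, LINC01873 7.53 and LINC01578, now CHASERR, 7.30. LINC01315 and LINC00839 followed with 6.07 and 5.62 scaled CPM per kilobase.

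**Figure D1:**
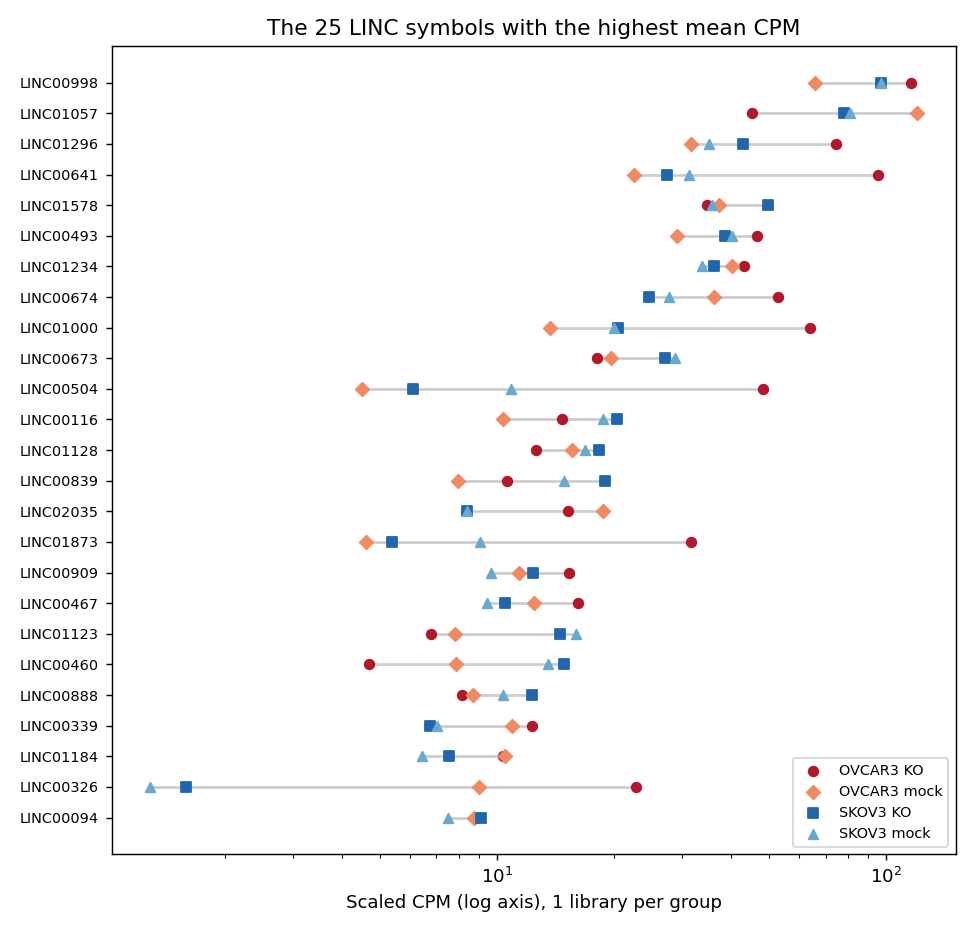
Scaled CPM (log axis, not per kilobase) of the 25 members with the highest mean, 1 point per library and 1 library per group. LINC00504, LINC00641, LINC01000 and LINC01873 have an OVCAR3 KO point far to the right of the other 3, LINC01057 has its OVCAR3 KO point at the low end (45.4 scaled CPM), and both OVCAR3 points of LINC00326 lie above both SKOV3 points.

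The plot of the 25 most abundant members orders them by mean level and shows how far the 4 libraries spread for each. Of the 12 members with the highest mean, LINC01234 spread least, with 43.3 scaled CPM in OVCAR3 KO, 40.4 in OVCAR3 mock, 36.3 in SKOV3 KO and 33.8 in SKOV3 mock. LINC00673, an RNA studied in pancreatic and other carcinomas, had 18.1, 19.7, 27.0 and 28.8 in the same order, with both OVCAR3 libraries below both SKOV3 libraries.

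The member set was shaped by 1 library. Of the 138 members, 128 had at least 1 unscaled CPM in OVCAR3 KO, against 99 in OVCAR3 mock, and 89 in SKOV3 KO, against 89 in SKOV3 mock. The excess was not particular to LINC symbols. Of 1042 other lncRNA genes with the same minimum, 972 passed in OVCAR3 KO, 457 in OVCAR3 mock, 480 in SKOV3 KO and 485 in SKOV3 mock. Of 12797 protein-coding genes, 12425, 11937, 11868 and 11777 passed in that order. All 4 libraries passed for 75 members (54.3%), both OVCAR3 libraries and no other for 13, and both SKOV3 libraries and no other for 3. For 27 members (19.6%) OVCAR3 KO alone passed, and for 4 OVCAR3 mock alone. The 27 summed to 44.9 unscaled CPM in OVCAR3 KO, 10.3 in OVCAR3 mock, 8.78 in SKOV3 KO and 10.1 in SKOV3 mock. Since they were admitted by that library, their higher level in it follows from the choice. The 27 included LINC00894 (4.55, 0.426, 0.254 and 0.797 scaled CPM in OVCAR3 KO, OVCAR3 mock, SKOV3 KO and SKOV3 mock) and LINC01876 (4.28, 0.487, 0.444 and 0.664). Just inside the threshold, LINC01465, LINC00337 and LINC00431 each reached 1.01 unscaled CPM in OVCAR3 KO. Just outside it, LINC01351 reached 0.982 in OVCAR3 mock, and LINC00562 and LINC01637 0.948 in OVCAR3 KO.

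**Figure D2:**
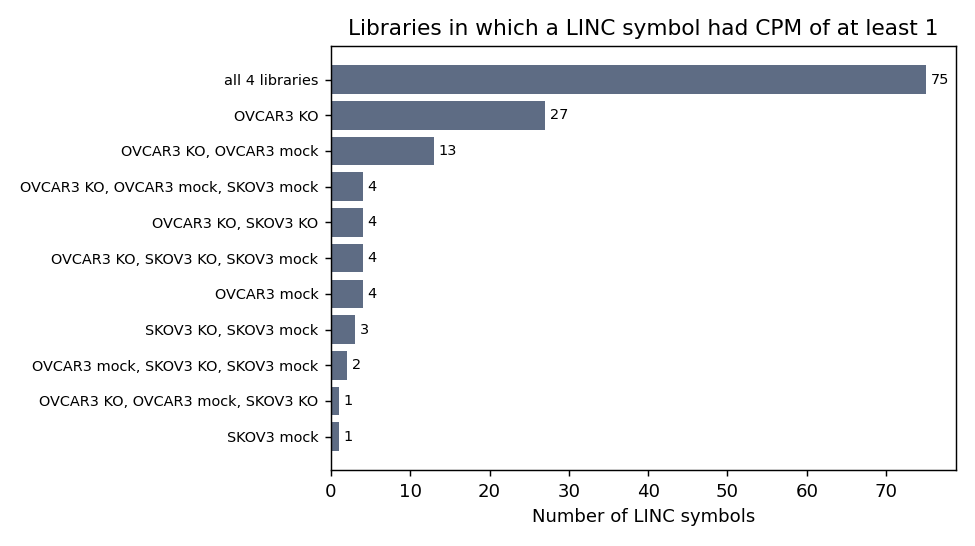
Number of members by the set of libraries in which they had at least 1 unscaled CPM. All 4 libraries together account for 75 of the 138 members, and OVCAR3 KO alone for 27.

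The plot of passing libraries shows that sets that hold the OVCAR3 KO library account for most members that did not pass in all 4.

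In the SKOV3-labelled pair the LINC RNAs were nearly level between KO and mock. A ratio is log2 of KO over mock of scaled counts with a prior count of 2, and a member is called higher or lower at 2-fold or more with at least 1 scaled CPM in at least 1 of the 2 libraries. With 1 library per group no difference within a pair has a replicate check, and brackets give exact 95% intervals that cover counting error only. Of 94 members measured, 0 were called higher (0.799% of all 13524 genes were) and 2 lower (0.739% of all genes were), with a median ratio of -0.01 and a range of -1.16 to 0.92. Both sat close to the minimum level. LINC01270, named after its values were seen, had 9 counts (0.571 scaled CPM) in SKOV3 KO, against 32 counts (1.42 scaled CPM) in SKOV3 mock, a ratio of -1.16 (-2.56 to -0.21). LINC00173 had 9 counts (0.571 scaled CPM) in SKOV3 KO, against 29 counts (1.28 scaled CPM) in SKOV3 mock, a ratio of -1.03 (-2.43 to -0.05). Neither passed the rule with a prior count of 5.

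Among members with at least 50 counts in the SKOV3-labelled pair, the lowest ratios stayed short of 2-fold. LINC01004 had 1.65 scaled CPM in SKOV3 KO, against 3.32 in SKOV3 mock (-0.96, -1.71 to -0.35). LINC01011 had 1.33, against 2.61 (-0.91, -1.77 to -0.23), and LINC00504 6.09, against 10.9 (-0.83, -1.20 to -0.49). LINC00861 (-0.78, -1.42 to -0.23), LINC01873 (-0.74, -1.13 to -0.38), LINC00896 (-0.73, -1.69 to 0.06), LINC01881 (-0.57, -1.41 to 0.15) and LINC00342 (-0.51, -0.997 to -0.05) were next. The intervals of LINC00896 and LINC01881 include 0, and those of the other 6 do not. The highest ratio was that of LINC01547, at 2.28 scaled CPM in SKOV3 KO, against 1.15 in SKOV3 mock (0.92, 0.22 to 1.77). LINC01578 was the abundant member with the largest positive ratio. It had 49.8 scaled CPM in SKOV3 KO, against 35.7 in SKOV3 mock (0.48, 0.33 to 0.62). Among the others named for a high ratio, LINC00476 had an interval above 0 (0.57, 0.16 to 1.002), while the intervals of LINC01910, LINC01521, LINC01002, LINC00886 and LINC00680 included 0.

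In the OVCAR3-labelled pair many LINC RNAs were higher in the KO library. Of 134 members measured, 52 (38.8%) were called higher, where 22% of all 15425 genes were, and 6 (4.48%) lower, where 15.5% of all genes were. Of 1003 other lncRNA genes, 63.9% were called higher and 3.19% lower, so the members moved less than these. The members' median ratio was 0.61, against 1.71 over other lncRNA genes and 0.15 over all genes. These counts include members and other genes admitted through the OVCAR3 KO library itself. When the choice rested on the SKOV3 libraries alone, at least 1 CPM in both, 84 members had a median ratio of 0.36 with 22 higher (26.2%) and 5 lower (5.95%), and all 12835 genes chosen in that way had a median of -0.03 with 11.5% higher and 17.8% lower. Under that choice other lncRNA genes had a median of 0.59, with 35.2% higher and 5.16% lower. Protein-coding genes had a median of -0.09, with 8.67% higher and 19.2% lower. A choice by the OVCAR3 mock library gave 99 members with a median of 0.36, 23 higher (23.2%) and 6 lower (6.06%), and 13208 genes with a median of -0.04, 10.8% higher and 18.1% lower. The members' median stayed above 0 under each scaling tried, at its lowest 0.27 with TMM factors from all genes, where the median of all genes moved by -0.28 and 41 members were higher and 11 lower. The mitochondrial share and the epithelial marker sum moved with the same library, as given above. Their part in the ratios was not tested.

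**Figure D3:**
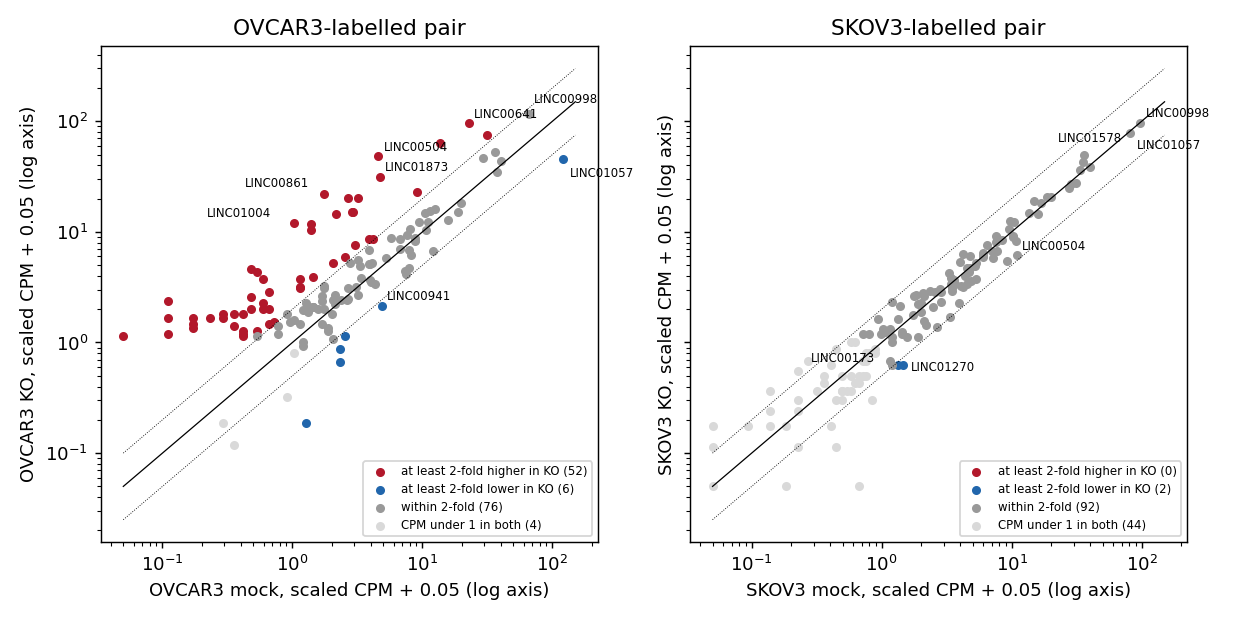
Each point is 1 of the 138 members, with scaled CPM plus 0.05 in the mock library (x) and in the KO library (y) of the OVCAR3-labelled pair (left) and the SKOV3-labelled pair (right), on log axes; the solid line marks equality and the dotted lines 2-fold. In the left panel 52 points are called higher and 6 lower in KO, in the right panel 0 and 2.

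**Figure D4:**
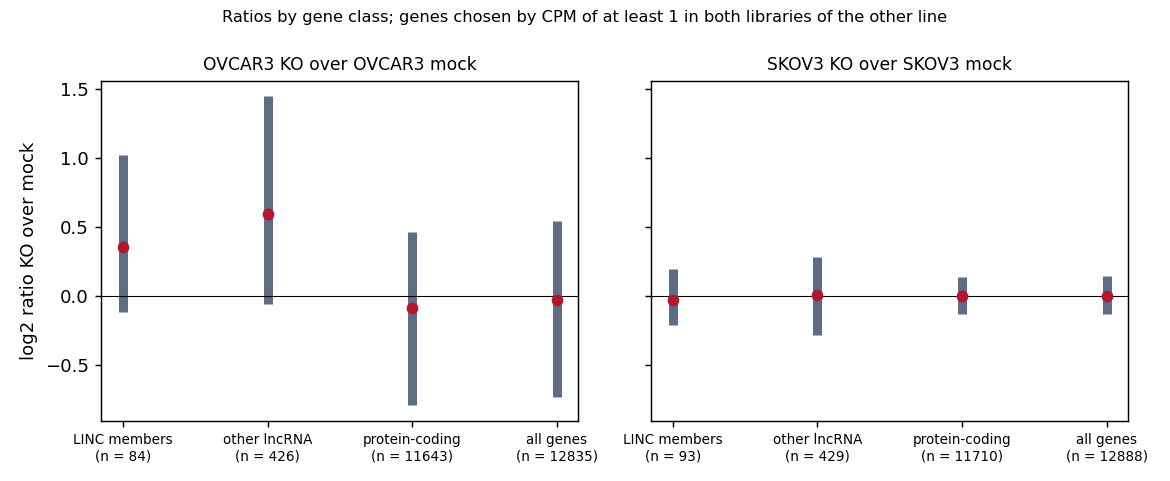
Median (point) and interquartile range (bar) of the log2 ratio KO over mock in each pair, for genes with at least 1 CPM in both libraries of the other line, by gene class. In the OVCAR3-labelled pair the LINC median is 0.36 and the protein-coding median -0.09; in the SKOV3-labelled pair all 4 medians lie within 0.03 of 0.

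The scatter of the 2 pairs shows the wide spread of the OVCAR3-labelled pair beside the narrow one of the SKOV3-labelled pair, and the plot by gene class shows the same ratios for genes chosen without the libraries compared. The ratio also varied with level. Members with a mean under 0.2 scaled CPM in the SKOV3 libraries had a median OVCAR3 ratio of 2.28 (n = 10), those from 0.2 to 1 of 1.09 (n = 39), those from 1 to 5 of 0.46 (n = 51), and those at 5 or more of 0.22 (n = 38). Protein-coding genes in the same bands had 2.17, 1.15, 0.33 and -0.13, and other lncRNA genes 2.82, 2.24, 0.74 and 0.37. The lowest band holds only 10 members. A gene in it cannot reach 1 CPM in a SKOV3 library, so all of its genes, members or not, were admitted through an OVCAR3 library. Genes from 0.2 to 1 could be admitted in that way too. The high ratios of these 2 bands thus follow in part from the choice.

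Several abundant members stood out in the OVCAR3 KO library. LINC00641 had 95.5 scaled CPM in OVCAR3 KO, against 22.6 in OVCAR3 mock, and 27.3 in SKOV3 KO, against 31.3 in SKOV3 mock. Its ratio was 2.07 (1.91 to 2.25) in the OVCAR3-labelled pair and -0.19 (-0.37 to -0.02) in the SKOV3-labelled pair. LINC01000 had 63.8 scaled CPM in OVCAR3 KO, against 13.7 in OVCAR3 mock (2.21, 2.01 to 2.44), and 20.5 in SKOV3 KO, against 20.0 in SKOV3 mock (0.03, -0.18 to 0.24). One library was high for both members, and the other 3 lay closer together, with OVCAR3 mock the lowest. The ratio of OVCAR3 mock over SKOV3 mock was -0.47 (-0.65 to -0.29) for LINC00641 and -0.54 (-0.78 to -0.31) for LINC01000. LINC00504 had 48.3 scaled CPM in OVCAR3 KO, against 4.50 in OVCAR3 mock, a ratio of 3.39 (3.08 to 3.79). LINC01873 had 31.5, against 4.63 (2.74, 2.41 to 3.14), with 5.39 in SKOV3 KO and 9.08 in SKOV3 mock. LINC01296 had 74.3, against 31.5 (1.23, 1.09 to 1.39), and 43.0 in SKOV3 KO, against 35.1 in SKOV3 mock. LINC01296 shares its whole transcript at 97% identity or more with other genes, so its counts are uncertain.

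Further members were low in OVCAR3 mock and several-fold higher in OVCAR3 KO. LINC00861 had 21.9 scaled CPM in OVCAR3 KO, against 1.70 in OVCAR3 mock, and 2.22 in SKOV3 KO, against 3.90 in SKOV3 mock, so that its OVCAR3 ratio was 3.60 (3.13 to 4.30). LINC01004 had 12.1, against 0.974 (3.49, 2.89 to 4.47). LINC00672, now LASP1NB, had 11.7, against 1.34 (3.02, 2.48 to 3.84), and was under 1 scaled CPM in both SKOV3 libraries. LINC00506 had 20.2, against 2.62 (2.90, 2.49 to 3.45), and LINC00173 had 10.3, against 1.34 (2.84, 2.30 to 3.66). LINC00342 had 20.0, against 3.17 (2.62, 2.23 to 3.12), and LINC00896 had 3.67, against 0.548 (2.51, 1.71 to 3.95). In each of these 7 members OVCAR3 KO was the highest of the 4 libraries. LINC00894 (3.11, 2.29 to 4.78) and LINC01876 (2.87, 2.07 to 4.41) had ratios of the same size from lower levels, and LINC00894 shares 57.6% of its transcript with near-identical genes. LINC01465 had 16 counts in OVCAR3 KO and 0 in OVCAR3 mock, which is at least 5.95-fold higher when 3 counts are set for the mock library. LINC00894, LINC01876 and LINC01465 were admitted through the OVCAR3 KO library alone, so their higher level in it follows from the choice.

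In all, 6 members were called lower in OVCAR3 KO than in OVCAR3 mock. LINC01057, now SLC44A3-AS1, is a long gene on chromosome 1 (94616352 to 94820232) and was the most abundant member in OVCAR3 mock. It had 669 counts (45.4 scaled CPM) in OVCAR3 KO, against 1978 counts (120 scaled CPM) in OVCAR3 mock, a ratio of -1.40 (-1.54 to -1.28). In the SKOV3 libraries it had 78.1 scaled CPM in KO, against 80.9 in mock (-0.05, -0.16 to 0.06), so the 2 OVCAR3 libraries lay on either side of the SKOV3 ones. LINC00941, studied in carcinomas, had 2.10 scaled CPM in OVCAR3 KO, against 4.81 in OVCAR3 mock (-1.15, -1.84 to -0.58), and LINC01137, now LITATS1, had 1.09, against 2.50 (-1.12, -2.13 to -0.34). LINC01011 had 0.815, against 2.25 (-1.35, -2.54 to -0.50). LINC01512 (-2.41, -6.31 to -1.12) and LINC00624 (-1.71, -3.12 to -0.81), named after their values were seen, had 2 and 9 counts in OVCAR3 KO, against 20 and 37 in OVCAR3 mock. Short of 2-fold, LINC00513 (-0.85, -1.34 to -0.41), LINC00963 (-0.82, -1.19 to -0.47), LINC00460 (-0.73, -1.19 to -0.31), LINC00857 (-0.72, -1.20 to -0.29) and LINC01278 (-0.41, -0.82 to -0.02) had intervals below 0.

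Setting the pairs side by side, which share no library, gave 0 of 90 members called in the same direction, where 24 of 13294 genes were called higher and 4 lower in both. Of these 90 members, 33 had a ratio above 0 in both pairs and 15 below 0 in both. Another 31 were above 0 in the OVCAR3-labelled pair and below 0 in the SKOV3-labelled one, and 11 the other way round. Spearman's rho across these members was -0.06, as a description, since members are not independent replicates. LINC00173 was the one member called in both, lower in SKOV3 KO and higher in OVCAR3 KO, as were 57 of the 13294 genes, and the difference between its ratios was not tested. With the line as a block, edgeR's quasi-likelihood test (Benjamini-Hochberg adjustment over 13670 genes, 1 residual degree of freedom) called 0 of 106 members for KO over mock, where it called 0% of all genes higher and 0% lower. At an unadjusted p under 0.05 edgeR had 0 members and 140 of all 13670 genes (1.02%). The lowest adjusted p of a member was 0.956. Since the labels name no separate cultures, these p-values describe only how far the 4 libraries differ, which may be technical.

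Between the labelled lines fewer members passed 2-fold in the mock libraries than in the KO libraries. In OVCAR3 mock over SKOV3 mock, 16 of 107 members were called higher (9.47% of all genes were) and 9 lower (5.52% of all genes were), with a median of -0.07. In OVCAR3 KO over SKOV3 KO, 57 of 134 were called higher (24.8% of all genes were) and 7 lower (14.6% of all genes were), with a median of 0.79. The choice of members bears on these counts. With members taken by the KO libraries, 4 of 84 were higher (4.76%, against 7.41% of genes chosen in that way) and 7 lower (8.33%, against 4.72%) between the mock libraries. With members taken by the mock libraries, 18 of 81 were higher (22.2%, against 13.4% of genes) and 4 lower (4.94%, against 16.8%) between the KO libraries. The difference between the 2 comparisons was not tested. The 2 comparisons share no library. Of 103 members measured in both, 42 were above 0 in both and 25 below 0 in both, and 11 were called higher and 4 lower in both, where 583 and 262 of 13547 genes were. Another 4 were called lower in OVCAR3 mock and higher in OVCAR3 KO, relative to SKOV3, namely LINC00504, LINC00861, LINC00896 and LINC01004, as were 175 of the 13547 genes.

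**Figure D5:**
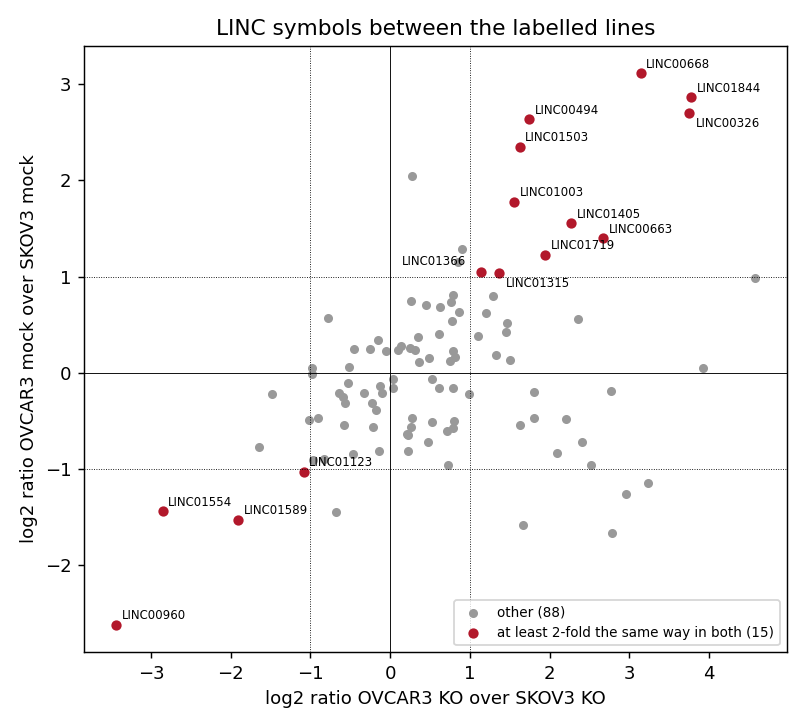
Each point is 1 of 103 members measured in both comparisons, with the log2 ratio OVCAR3 KO over SKOV3 KO (x) and OVCAR3 mock over SKOV3 mock (y); dotted lines mark 2-fold. The 15 members past 2-fold the same way in both are named, with LINC00326, LINC01844 and LINC00668 highest and LINC00960 lowest.

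The plot of both line comparisons puts LINC00326, LINC01844 and LINC00668 at the top right. LINC00326 had 335 and 148 counts in OVCAR3 KO and OVCAR3 mock (22.7 and 9.01 scaled CPM), and 25 and 29 counts in SKOV3 KO and SKOV3 mock (1.59 and 1.28). Its ratio of OVCAR3 over SKOV3 was 3.75 (3.25 to 4.49) between the KO libraries and 2.70 (2.23 to 3.44) between the mock libraries. LINC01844 had 111 and 49 counts in the OVCAR3 libraries and 7 and 7 in the SKOV3 libraries, with ratios of 3.77 (2.99 to 5.43) and 2.87 (2.12 to 4.65). LINC00668 had 38 counts in OVCAR3 KO and 27 in OVCAR3 mock, but 3 in SKOV3 KO and 2 in SKOV3 mock. For these 3 members every OVCAR3 library was above every SKOV3 library. LINC01844 and LINC00668 were admitted through the OVCAR3 libraries alone, so for them that order follows in part from the choice. LINC00326 passed in all 4 libraries. LINC00326 and LINC01844 were also called higher in OVCAR3 KO than in OVCAR3 mock (1.32, 1.05 to 1.62, and 1.30, 0.84 to 1.85).

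Other members were lower in the OVCAR3 libraries. LINC00960 had 2 counts in OVCAR3 KO and 4 in OVCAR3 mock, but 41 in SKOV3 KO and 47 in SKOV3 mock, with ratios of -3.44 (-7.35 to -2.31) and -2.62 (-5.03 to -1.64). LINC00960 was admitted through the SKOV3 libraries alone, so its direction follows in part from the choice. LINC01589 had 0.882 and 1.16 scaled CPM in OVCAR3 KO and OVCAR3 mock, against 3.62 and 3.54 in SKOV3 KO and SKOV3 mock, with ratios of -1.90 (-3.03 to -1.15) and -1.52 (-2.42 to -0.88). LINC01123 had ratios of -1.08 (-1.45 to -0.75) and -1.03 (-1.34 to -0.74), but shares most of its transcript with LINC01106. LINC00460 had 4.68 and 7.85 scaled CPM, against 14.9 and 13.5, and was called lower between the KO libraries (-1.65, -2.08 to -1.28) and not between the mock libraries (-0.77, -1.09 to -0.48). LINC02001, now SNHG30, a small nucleolar RNA host gene, was called lower between the mock libraries (-1.45, -1.90 to -1.07) and not between the KO libraries (-0.68, -1.13 to -0.27). On the other side, LINC01315 (1.37, 0.99 to 1.80, and 1.04, 0.69 to 1.43) and LINC01003 (1.56, 0.75 to 2.71, and 1.78, 1.13 to 2.75) were higher in OVCAR3 in both. LINC02035 had 15.2 and 18.8 scaled CPM in the OVCAR3 libraries, against 8.37 and 8.37 in the SKOV3 libraries, and passed 2-fold between the mock libraries (1.16, 0.90 to 1.44) and not between the KO libraries (0.85, 0.54 to 1.18). LINC00963 did likewise, at 1.29 (0.96 to 1.66) between the mock libraries and 0.90 (0.43 to 1.42) between the KO libraries. LINC01271 (0.75, 0.23 to 1.34) and LINC01468 (0.81, 0.24 to 1.46) stayed short of 2-fold between the mock libraries.

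Across the 4 libraries, with KO as a block, edgeR called 0 of 106 members between the lines, where it called 0.0293% of all genes higher and 0.00732% lower. At an unadjusted p under 0.05 it had 17 members (16.04%), 12 higher and 5 lower, and 1656 of all genes (12.1%). LINC00326 had a log2 difference of 3.32 (edgeR adjusted p = 0.124), LINC01844 of 3.66 and LINC00668 of 3.90 (edgeR adjusted p = 0.213 for both), and LINC00960 of -3.57 (edgeR adjusted p = 0.220). DESeq2 called LINC00326 (adjusted p = 7.25e-05) and LINC01844 (adjusted p = 0.00760), and edgeR without a filter on low counts called 2 members. Of these named members, LINC00326 passed the minimum in all 4 libraries. LINC01844 and LINC00668 entered the members and the filtered fit through the OVCAR3 libraries alone, and LINC00960 through the SKOV3 libraries alone. The direction of these 3 therefore follows in part from the choice, and their p-values do not allow for it. Without the OVCAR3 KO library, edgeR called 26 of 89 members, 9 higher and 17 lower, where it called 23.5% of all genes higher and 23.5% lower. That fit sets OVCAR3 mock alone against the 2 SKOV3 libraries, and assumes that the lone library varies like them.

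By role, the LINC symbols now known to encode a small protein were within 2-fold in all 4 comparisons for each of the 4 expressed of 11 listed. Most genes were within 2-fold too. Of all genes, 0.799% were called higher and 0.739% lower in the SKOV3-labelled pair, and 22% and 15.5% in the OVCAR3-labelled pair. Between the lines the shares were 9.47% and 5.52% in the mock libraries, and 24.8% and 14.6% in the KO libraries. LINC00998 had 116 scaled CPM in OVCAR3 KO, against 65.7 in OVCAR3 mock (0.82, 0.71 to 0.93), and 97.1 in SKOV3 KO, against 97.1 in SKOV3 mock (0.00, -0.09 to 0.10). LINC00493 had ratios of 0.68 (0.51 to 0.86) in the OVCAR3-labelled pair and -0.06 (-0.21 to 0.09) in the SKOV3-labelled pair. LINC00116 had ratios of 0.50 (0.21 to 0.80) and 0.12 (-0.09 to 0.33). For these 3 the OVCAR3 interval lay above 0 and the SKOV3 interval included 0. LINC00094, now BRD3OS, had 8.82, 8.76, 9.13 and 7.48 scaled CPM in OVCAR3 KO, OVCAR3 mock, SKOV3 KO and SKOV3 mock, but overlaps BRD3 on the opposite strand, so reads of the 2 genes cannot be told apart where the counting ignored strand. RefSeq gives 3 further members as protein-coding, LINC00176, LINC00634 and LINC00672, which were not on the list. All 3 were called higher in OVCAR3 KO than in OVCAR3 mock, where 38.8% of members and 22% of all genes were. LINC00672 is given above, LINC00176 was at 1.81 (0.70 to 3.93) and LINC00634 at 1.40 (0.25 to 3.29). The last 2 were admitted through the OVCAR3 KO library alone, so their higher level in it follows from the choice.

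Of 21 listed LINC RNAs studied in epithelial cancers, 11 were members. In the OVCAR3-labelled pair 1 was called higher and 1 lower of 11 (22% and 15.5% of all genes), with a median of -0.13, and in the SKOV3-labelled pair 0 and 0 of 10 (0.799% and 0.739% of all genes), with a median of -0.03. The member called higher was LINC00511 (3.05 scaled CPM in OVCAR3 KO, against 1.10 in OVCAR3 mock, 1.39, 0.66 to 2.36), and the one called lower was LINC00941. LINC00673 (-0.13, -0.37 to 0.11), LINC01234 (0.10, -0.06 to 0.26), LINC00662 (-0.11, -0.67 to 0.43), LINC00346 (0.29, -0.07 to 0.65) and LINC01503 (-0.54, -1.51 to 0.31) had intervals that include 0 in the OVCAR3-labelled pair, and LINC00467 was at 0.37 (0.10 to 0.65). Between the lines LINC01503 was called higher in OVCAR3 in both comparisons (1.63, 0.46 to 3.73, between the KO libraries and 2.35, 1.49 to 4.34, between the mock libraries). LINC01503 was admitted through the OVCAR3 libraries alone, so its direction between the lines follows in part from the choice. Of 3 listed LINC RNAs induced by p53, DNA damage or cAMP and CREB, 2 were matched by symbol, and of 4 listed microRNA hosts 3 were matched, with 0 members among them. By symbol, 20 of the 21 listed cancer RNAs and 7 of the 11 listed small-protein genes were matched.

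LINC01578, now CHASERR, restrains its neighbour CHD2, a chromatin remodeller, in cis, and lies 1577 bases from it on the same strand. It had 34.7 scaled CPM in OVCAR3 KO, against 37.2 in OVCAR3 mock (-0.10, -0.27 to 0.07), where CHD2 had 147, against 185, a ratio of -0.34. In the SKOV3-labelled pair CHASERR had a ratio of 0.48 (0.33 to 0.62) and CHD2, at 185 scaled CPM in KO, against 202 in mock, a ratio of -0.12. The 2 genes had ratios of opposite sign in the SKOV3-labelled pair and of the same sign in the OVCAR3-labelled pair, each under 2-fold.

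Over all members, Spearman's rho between the ratio of a member and that of its nearest protein-coding gene ran from 0.06 to 0.34 over the 4 comparisons. Among members that overlap no protein-coding gene it ran from 0.04 to 0.33. These values are a description and were not set against other pairs of genes. In the OVCAR3-labelled pair 62 of 103 members had the sign of their neighbour (rho 0.14), with a median ratio of 0.54 for the members and 0.00 for the neighbours, and in the SKOV3-labelled pair 40 of 71 did (rho 0.26). Between the lines 50 of 82 did in the mock libraries (rho 0.34) and 59 of 104 in the KO libraries (rho 0.06). LINC00641 rose beside HNRNPC, an RNA-binding protein gene 2247 bases away that had 895 scaled CPM in OVCAR3 KO, against 877 in OVCAR3 mock (0.03). LINC01057 fell 125 bases from SLC44A3, a gene of the choline transporter-like family on the opposite strand, which had 9.98, against 8.52 (0.22). LINC01137 fell 137 bases from ZC3H12A, which encodes an RNase that degrades inflammatory mRNAs and had 4.34, against 6.70 (-0.61). LINC00672 rose 3844 bases from LASP1, an actin-binding protein gene that had 109, against 342 (-1.65). In annotation, 16 members overlapped a protein-coding gene, 8 on the opposite strand and 4 on the same strand, and 9 lay within 1 kb without overlap. The median distance was 16297 bases.

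Outside the LINC series, named lncRNAs moved in the same library. Of 23 expressed among 35 listed, 10 were called higher and 1 lower in the OVCAR3-labelled pair (22% and 15.5% of all genes), with a median ratio of 0.79. In the SKOV3-labelled pair 0 and 0 of 20 were called (0.799% and 0.739% of all genes). NEAT1, the scaffold RNA of nuclear paraspeckles, had 1612 scaled CPM in OVCAR3 KO, against 142 in OVCAR3 mock, and 286 in SKOV3 KO, against 446 in SKOV3 mock. MALAT1, an RNA of nuclear speckles, had 198, against 25.9, a ratio of 2.93 (2.79 to 3.09), and in the SKOV3-labelled pair a ratio of -0.46 (-0.62 to -0.30). The order of the 4 libraries seen for NEAT1, from OVCAR3 KO through SKOV3 mock and SKOV3 KO to OVCAR3 mock, was found in 21 members (15.2%), LINC00641, LINC00504, LINC01873 and LINC00861 among them, in 9.06% of all genes and in 19.7% of other lncRNA genes. Another order was as frequent, from OVCAR3 KO through OVCAR3 mock and SKOV3 KO to SKOV3 mock. It was found in 21 members (15.2%), in 7.04% of all genes and in 8.73% of other lncRNA genes. Orders with OVCAR3 KO on top also follow in part from the choice, since 27 members passed in that library alone. These shares are a description over 4 libraries.

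The members differ in structure as well. The 128 members found in GENCODE 29 had a median of 2745 exon bases (469 to 27605) and 3 exons. RefSeq gives 129 of the 138 as lncRNA, 7 as protein-coding and 2 as transcribed pseudogenes, and 25 have since been renamed. Members called higher in the OVCAR3-labelled pair had a median of 2618 exon bases (n = 47), against 3014 for those within 2-fold (n = 73). Of 129 members searched, 19 shared at least 300 bases at 97% identity or more with another gene, and 12 shared most of the transcript (51.2% or more of it). The 12 include LINC01296, LINC01123, LINC00623, LINC00894, LINC01002 and LINC01881, whose values are uncertain for that reason.

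Promoter windows were found for 98 members, with a median GC content of 60.5%, against 58.3% over the 27305 windows of the table. The 33 members called higher in OVCAR3 KO had a median of 52.7%, and the other 65 of 62.0%, given without a test since the same ratios made the groups. GGGCGG stood in 27.3% of the windows of the 33, in 53.8% of the other 65 and in 44.6% of all windows of the same length. CCAAT stood in 42.4%, 46.2% and 35.7%, TATAAA in 3.03%, 15.4% and 11.95%, TGANTCA in 12.1%, 12.3% and 7.76%, TGACGTCA in 0%, 3.08% and 1.98%, and TGATGNAA in 6.06%, 3.08% and 3.67%. In the windows printed above, the higher members LINC00641 and LINC01873 have a GC content of 39.0% and 37.0%, and the lower members LINC00941 and LINC01137 of 66.0% and 80.7%. The printed windows lie further apart than the medians of the groups. Other members go against the split. LINC00511 and LINC00506, called higher, have 78.0% and 64.0%, and LINC00513, lower but short of 2-fold, has 49.3%.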

How the data were processed

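Per the labels' protocols, Trizol was used for the RNA and the NEBNext Ultra II Directional kit, which marks strand, for the libraries. TopHat and the build GRCh38 are named in the submitters' processing notes. The read counter with its annotation and strand setting is not given in the sources used here. In each case the authors deposited 1 table per library with whole-number counts for each gene symbol, without normalisation. Rows that share a symbol were summed.

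Groups were taken from the sample titles. Counts were scaled with TMM factors of edgeR 4.0.16 in R 4.3.3 (0.931 for OVCAR3 KO, 1.01 for OVCAR3 mock, 1.04 for SKOV3 KO and 1.02 for SKOV3 mock) computed on 13670 genes (at least 1 CPM in 2 or more libraries). Log2 ratios used a prior count of 2, and Clopper-Pearson bounds gave the 95% intervals of the ratio of the counts without it. The size rule was 2-fold with at least 1 scaled CPM in at least 1 of the 2 libraries. Fits across 4 libraries used edgeR's quasi-likelihood test with the other factor as a block and a threshold of 0.05, with DESeq2 1.42.0 and limma 3.58.1 (voom) as alternatives. The edgeR fits were tested on simulated counts. Intervals cover counting error only, since the labels name no molecular identifiers.

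Members and gene lists were chosen with earlier results of these data known. Members were named by level (the 12 highest, overall and per kilobase), by ratio (the 8 largest and 8 smallest per pair with at least 50 counts), by presence in 1 line only, by a call of edgeR, by role list and by nearness to the threshold. Annotation came from RefSeq (GRCh38.p14) and GENCODE 29, and shared sequence from blastn 2.17.0.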

Additional observations from a re-analysis of the deposited data

Results flagged for a closer look

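LINC00173 moved in opposite directions in the 2 labelled lines. Its log2 ratio of KO over mock was -1.03 in the SKOV3-labelled pair and 2.84 in the OVCAR3-labelled pair, each from 1 library per group. The difference between the 2 ratios was not tested. In SKOV3 it rests on 9 counts in KO, against 29 in mock.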

How the results depend on the processing

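Of 63 alternatives, 43 left the count of members within 1.5 times its value. For the SKOV3-labelled pair (2 members called), a prior count of 5, a 3-fold rule and a minimum of 5 CPM each gave 0, a 1.5-fold rule 14 and no minimum 10. For the OVCAR3-labelled pair (58), a 3-fold rule gave 37, a minimum of 5 CPM 21, a minimum of 1 CPM in the mock library 29 and in both SKOV3 libraries 27. For OVCAR3 mock over SKOV3 mock (25), a 1.5-fold rule gave 49, a 3-fold rule 11, a minimum of 5 CPM 7, a minimum in SKOV3 mock 13 and in both KO libraries 11, and the share of higher calls was 30.8% and 36.4% under these last 2, against 64.0%. For OVCAR3 KO over SKOV3 KO (64), a minimum of 5 CPM gave 21, in SKOV3 KO 24 and in both mock libraries 22. For the lines over 4 libraries (0), DESeq2 gave 2, no filter 2 and leaving out OVCAR3 KO 26. The minimums set on 1 library or outside the pair, and TMM factors from all genes, were chosen after seeing the data. TMM factors from all genes moved the share of higher calls to 78.8% in the OVCAR3-labelled pair, against 89.7%, and to 79.0% between the KO libraries, against 89.1%, where the median of all genes moved by -0.28 and -0.29; without scaling it moved by -0.11 and -0.16. With 1 library per group nothing separates a line's KO from its library, and leaving out a library from the KO fit leaves no residual degrees of freedom. No paired analysis was possible because the groups share only replicate number 1, so the numbers pair no samples, and the only block available was the line label or the KO state, used in the fits across 4 libraries.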
